A study of Mus musculus with 12 samples.

Results

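The step described here is the one from activated B cells to pre-plasmablasts in mice that lack Mzb1. It was read from 4 of the 12 libraries of the series, the 2 labelled as Mzb1 ko pre-plasmablasts and the 2 labelled as Mzb1 ko activated B cells, chosen by their labels alone. Spleen B cells of C57BL/6 mice were enriched with B220 beads, kept for 4 days in culture with LPS (lipopolysaccharide, a bacterial product that activates B cells) at 25 µg/ml, and sorted by CD138 and a green fluorescent reporter in Prdm1, the gene of the transcription factor Blimp1. Pre-plasmablasts carried the reporter signal without CD138, while activated B cells carried neither. The ko mice were Mzb1-/- Prdm1+/gfp, and the wild-type (wt) libraries set beside them for the same step, also 2 of each population, came from Mzb1+/+ Prdm1+/gfp mice. All of these cells therefore carried 1 reporter allele of Prdm1, and none of the libraries came from mice with both Prdm1 alleles intact. Plasmablasts, which carried both, are used only to show where a gene's level lay later. The labels give neither the sex of the mice nor whether the 2 libraries of a group came from separate mice or cultures. Xist, the RNA of the inactive X chromosome, was at most 0.389 FPKM in the 6 ko libraries, and the Y-linked Ddx3y was at least 15.7 FPKM there, the pattern of male cells. In wt, replicate 1 of each population had 33.3 to 81.4 FPKM of Xist and at most 0.0479 FPKM of Ddx3y, the pattern of female cells, and replicate 2 had at most 0.0321 and at least 19.1 FPKM. The 2 wt libraries of a group thus came from different mice, and their spread holds a difference of sex. For the 2 ko libraries of a group, sex does not show whether the mice differed. Xist, though low, was 0.161 to 0.389 FPKM in replicate 1 of the ko populations and 0.0151 to 0.0291 FPKM in replicate 2. Whether this reflects different mice was not tested, so the spread between the ko libraries may be technical.

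An activated B cell that becomes a plasma cell gives up its B cell programme and builds a large secretory apparatus. Blimp1 shuts down genes of B cell identity, Irf4 and Xbp1 drive the new state, and Xbp1 in particular raises genes for protein folding and transport in the endoplasmic reticulum (ER). Mzb1 is an ER-resident co-chaperone of Hsp90b1 (also called Grp94 or gp96), the ER member of the Hsp90 family, and is abundant in plasma cells and in marginal zone and B1 B cells. The series title names plasma cell differentiation and β1 integrin function as the fields of interest, and the comparison addresses the first transition of that course in cells without Mzb1.

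Values are FPKM, fragments counted per length of transcript and size of library, and changes are differences of log2(FPKM + 1), pre-plasmablasts minus activated B cells, with 2 libraries in each group. A gene is called where limma gave a Benjamini-Hochberg adjusted p under 0.05. Of 11069 genes tested, 54.2% were called in the ko step, 27.1% as higher (3003 genes) and 27% as lower (2993 genes) in pre-plasmablasts. A log2 change of at least 1 was reached by 9.83% as higher (1088 genes) and by 6.23% as lower (690 genes). With so wide a change across the transcriptome, a list is read against these shares and against the median of all genes tested, a log2 change of -0.02. Scaling every library to the same total gave 2391 higher and 3976 lower genes and moved the median of all genes to -0.15, so small changes of either sign depend on the scaling.

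Sequence elements of the ER stress response are shown first, since genes that carry them were prominent in what follows. The ER stress element, ERSE, is bound by Atf6 and Xbp1 together with NF-Y, and was searched as CCAAT and CCACG parted by 9 bases of any kind, on both strands of RefSeq promoters (build GRCm38.p6, 250 bases before to 50 after each gene start). Such promoters were found for 8874 of the tested genes. The windows below come from ER chaperone and degradation genes, with the element in capitals and each sequence read on the strand that carries it. They lie at chr10:75893222-75893280 (Derl3, minus strand), chr15:88819500-88819558 (Creld2, minus strand), chr10:86705513-86705571 (Hsp90b1, plus strand), chr12:17266471-17266529 (Pdia6, plus strand), chr2:34772005-34772063 (Hspa5, plus strand) and chr8:84847055-84847113 (Calr, plus strand).
Derl3: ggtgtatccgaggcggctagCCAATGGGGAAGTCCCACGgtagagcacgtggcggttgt
Creld2: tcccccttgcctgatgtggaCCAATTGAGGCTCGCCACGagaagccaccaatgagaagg
Hsp90b1: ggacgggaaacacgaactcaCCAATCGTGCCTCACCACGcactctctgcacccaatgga
Pdia6: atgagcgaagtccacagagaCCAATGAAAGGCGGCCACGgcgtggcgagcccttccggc
Hspa5: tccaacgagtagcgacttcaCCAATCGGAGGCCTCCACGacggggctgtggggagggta
Calr: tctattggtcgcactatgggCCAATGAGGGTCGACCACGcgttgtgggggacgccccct

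The unfolded protein response element, UPRE, is bound by Xbp1 and was searched as TGACGTGG on both strands. It is shown for 2 disulfide isomerase relatives and for 2 transport genes. The windows lie at chr13:38528029-38528068 (Txndc5, minus strand), chr16:11134611-11134650 (Txndc11, minus strand), chr3:123267454-123267493 (Sec24d, plus strand) and chr15:79516362-79516401 (Kdelr3, minus strand).
Txndc5: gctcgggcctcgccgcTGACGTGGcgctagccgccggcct
Txndc11: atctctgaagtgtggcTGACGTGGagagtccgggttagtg
Sec24d: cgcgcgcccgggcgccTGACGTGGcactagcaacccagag
Kdelr3: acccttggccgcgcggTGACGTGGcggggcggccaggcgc

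The targeted gene came first. Mzb1 stood at 899 and 871 FPKM in ko pre-plasmablasts, against 273 and 289 FPKM in ko activated B cells. In wt cells it reached 10066 and 9926 FPKM in pre-plasmablasts, against 845 and 1016 FPKM in activated B cells. Reads assigned to the gene were thus present in every ko library, at a lower level than in any wt library of the same population, and the labels do not say which part of the gene was deleted. The remaining Mzb1 signal still rose over the ko step, by a log2 change of 1.65 ± 0.13 (SE, adjusted p = 1.58e-06), whereas the wt step was 3.43. The difference of the steps, -1.78 ± 0.18, was called (adjusted p = 0.00697) and is taken up with the comparison of both genotypes.

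The labelled cell types matched their markers. Prdm1 had 324 and 272 FPKM in ko pre-plasmablasts, against 19.9 and 25.4 FPKM in ko activated B cells, a log2 change of 3.67 ± 0.13. The sort used a reporter in this gene, so its difference is partly set by the gate. Jchain, which encodes the joining chain of polymeric IgM and IgA and was not used in the sort, had 6670 and 6785 FPKM in ko pre-plasmablasts, against 14.3 and 39.2 FPKM in ko activated B cells. Its log2 change of 8.08 ± 0.35 (adjusted p = 2.81e-08) corresponds to 271-fold on the FPKM + 1 scale and was the largest rise among the named genes. Sdc1, the gene of CD138, was low throughout at 3.24 and 4.56 FPKM in ko pre-plasmablasts, against 0.989 and 1.44 FPKM in ko activated B cells, and it rose by 1.14. The CD138-positive ko plasmablasts had 66.5 and 98.4 FPKM of Sdc1, far above both sorted CD138-negative populations. Of 7 B lineage markers, 6 are in the files. Cd79a and Cd74 were called higher and the others, among them Cd79b, Ms4a1 and Cd22, lower, and the lowest of them in pre-plasmablasts, Cd22, still had 14.3 and 21.8 FPKM.

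Markers of other cell types were mostly at or near 0. Cd3e, a defining T cell gene, was at 0 in all 4 ko libraries, as were the granulocyte genes S100a8 and S100a9, the macrophage gene C1qa and the globin genes Hba-a1 and Hbb-b1. The summed FPKM of 9 T cell markers was 8.72 and 6.64 in ko pre-plasmablasts, against 1.99 and 1.69 in ko activated B cells, most of it from Cd3g and Lat, both called higher. The sum of 8 natural killer cell markers was 3.33 and 3.10, against 0.789 and 0.305, with Eomes, Nkg7 and Prf1 called higher and Ncr1 and Gzma at 0 in all 4 libraries. Adgre1, the macrophage antigen F4/80, had 1.58 and 0.963 FPKM in ko pre-plasmablasts, against 28.2 and 12.6 FPKM in ko activated B cells, and fell by 3.15 on the log2 scale. Flt3, found on dendritic cells and on early B cells, also fell, while Cd68 and Itga2b rose. The sum of 9 macrophage markers was 22.7 and 23.0 FPKM, against 38.4 and 23.1 FPKM. The calls of Nkg7, Prf1 and Flt3 were lost under at least 1 other setting, and the part of other cells in the results was not tested. In these sorted bulk samples fewer cells of a type and less RNA per cell cannot be told apart.

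Summed FPKM in the 4 ko libraries ran from 430170 to 567737, with 10198 to 10422 genes at 1 FPKM or more. Small RNA genes took 1.57% to 14.2% of the total, highest in pre-plasmablast replicate 2, where Mir704 alone took 10.1%. Low values followed 1 pattern in replicate 1 of both ko groups and another in replicate 2, so each replicate number stayed within its own pattern. Replicates correlated at r = 0.986 in both ko groups (a correlation over genes, which do not stand for independent samples). The median change of each function list is therefore also available from either replicate number on its own. For the ER folding list it was 2.70 in replicate 1 and 2.52 in replicate 2, and for the actin list -0.70 and -0.85.

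Regulators of the plasma cell state rose together. Of 12 such genes, 10 were called higher and none lower, 9 with a log2 change of at least 1, and their median change was 2.90. Xbp1 had 1394 and 1317 FPKM in ko pre-plasmablasts, against 76.5 and 86.8 FPKM in ko activated B cells (log2 change 4.04 ± 0.09, adjusted p = 1.02e-09). Bhlha15, which encodes Mist1, a regulator of secretory cell architecture downstream of Xbp1, had 106 and 112 FPKM, against 1.96 and 2.73 FPKM (5.05 ± 0.13). Bhlha15 was also named among the largest changes, a rule that took only genes without overlap between the groups. Ell2 and Eaf2, partners in transcription elongation, of which Ell2 promotes the switch to secreted immunoglobulin heavy chain mRNA, rose by 3.19 and 3.44. Irf4 had 275 and 230 FPKM in ko pre-plasmablasts, against 79.3 and 70.7 FPKM in ko activated B cells, a smaller rise of 1.73. Ern1, the ER stress sensor Ire1α that splices Xbp1 mRNA, rose by 2.61, Atf6 by 0.85 and the related ER membrane factor Creb3l2 by 3.74. Ikzf3, or Aiolos, and Zbtb20 were not called, at log2 changes of 0.15 and -0.28.

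**Figure D1:**
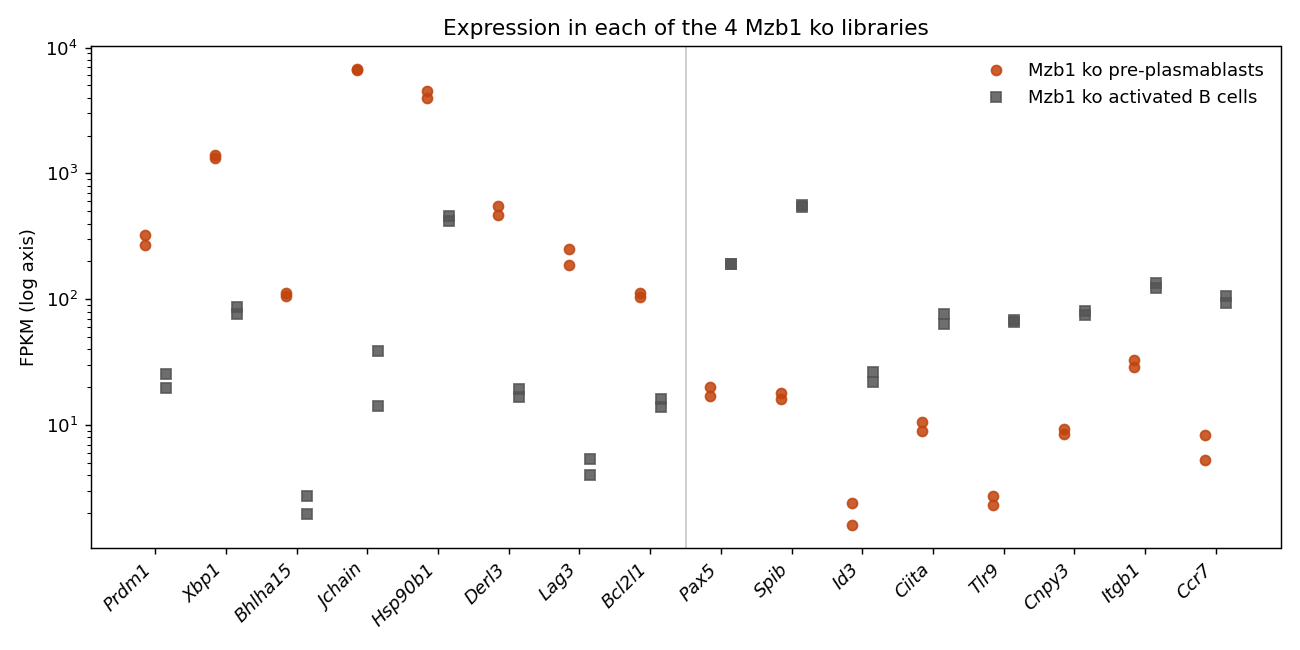
FPKM of 16 genes on a log axis in each of the 4 Mzb1 ko libraries, with pre-plasmablasts (circles) left of activated B cells (squares) and 1 point per library. In the 8 genes left of the grey line both pre-plasmablast libraries lie above both activated B cell libraries. In the 8 genes right of it they lie below. The libraries of a group lie close together except for Jchain in activated B cells. The genes are arranged by direction, so their separation is no result of its own.

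B cell transcription factors went the other way. Of 15, 12 were called lower and 2 higher, with a median of -0.77. Spib, an Ets factor of the B cell response, had 16.3 and 17.9 FPKM in ko pre-plasmablasts, against 543 and 558 FPKM in ko activated B cells (log2 change -4.93 ± 0.20, adjusted p = 2.04e-08). Pax5, the factor that holds B cell identity, had 17.0 and 20.2 FPKM, against 190 and 191 FPKM (-3.29 ± 0.12). Bcl11a and Klf2 fell by 3.25 and 4.13, and Bach2, which represses Prdm1 in B cells, fell by 1.52. Tcf3, Ikzf1, Spi1, Pou2f2, Irf8 and Ebf1 fell by less than 1, and each kept at least 15.9 FPKM in pre-plasmablasts. Foxo1 and Ets1 rose slightly, by 0.48 and 0.36, and Bcl6 was not called, at 5.21 and 4.46 FPKM in ko pre-plasmablasts, against 6.70 and 5.35 FPKM in ko activated B cells. The loss of the B cell factors was thus deep for some members and shallow for others.

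Of 7 genes known as direct or indirect targets of Blimp1 repression, 6 were called lower, with a median of -3.07. The list shares members with the B cell factors above, among them Pax5, Spib and Bcl6, and Ciita with the MHC class II list below. These counts are therefore not independent. Ciita, the master activator of MHC class II genes, had 9.04 and 10.6 FPKM in ko pre-plasmablasts, against 63.7 and 76.4 FPKM in ko activated B cells (log2 change -2.71). Id3 fell by 3.07, and Myc by only 0.35, with 37.1 and 43.1 FPKM remaining in pre-plasmablasts, against 49.7 and 52.8 FPKM in activated B cells. A motif of the Blimp1 type was added after the values had been seen, searched as AGNGAAAG on both strands of the promoters. It was present in 8.89% of promoters of tested genes, in 14.6% of those of genes lower by at least 1 and in 8.73% of those of genes higher by at least 1. Of the 789 genes with it, 25.6% were called higher and 32.7% lower, beside 27.1% and 27% of all genes tested. Of the Blimp1-repressed genes, 4 had a promoter sequence and 1 of these held the motif. Bcl2l11 and Itga2b, which rose by 2.00 and 0.79, also had the motif. Pax5 and the actin regulator Evl had it upstream of their starts, shown at chr4:44710862-44710901 (Pax5, plus strand) and chr12:108554470-108554507 (Evl, minus strand), with the motif in capitals.
Pax5: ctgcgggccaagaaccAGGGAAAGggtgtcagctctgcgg
Evl: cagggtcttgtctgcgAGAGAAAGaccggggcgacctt

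The B cell receptor pathway fell in most of its parts, with 19 of 24 genes called lower, 3 higher and a median of -0.80. Cd22, an inhibitory coreceptor, had 14.3 and 21.8 FPKM in ko pre-plasmablasts, against 261 and 336 FPKM in ko activated B cells, and fell by 3.99, the deepest change of the list. Bank1, Cd72, Prkcb and Lyn, which carry or tune the signal, fell by 2.59, 2.01, 1.91 and 1.70. The kinases Syk and Btk fell by 1.05 and 0.60. The receptor's own signalling chains diverged. Cd79a had 1999 and 1747 FPKM in ko pre-plasmablasts, against 886 and 957 FPKM in ko activated B cells, and rose by 1.02, whereas Cd79b had 1117 and 1168 FPKM, against 1405 and 1554 FPKM, and fell by 0.37. Cr2 and Cd81, both parts of the B cell coreceptor complex, rose by 1.55 and 0.80. Blnk, the adaptor that links Syk to its targets, was not called, at 272 and 301 FPKM, against 268 and 275 FPKM.

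MHC class II genes split by function. The antigen-presenting chains H2-Aa, H2-Ab1 and H2-Eb1 were not called, and H2-Ab1 stood at 1464 and 1388 FPKM in ko pre-plasmablasts, against 1163 and 1467 FPKM in ko activated B cells, with overlapping groups. The peptide-loading chain H2-DMa had 38.4 and 41.2 FPKM, against 112 and 133 FPKM, and fell by 1.59. H2-DMb1 and H2-DMb2 fell by 1.41 and 2.29, and H2-Oa by 2.40, although the H2-DMb genes are near-identical copies whose reads may be split between them. Cd74, the invariant chain, was called slightly higher, by 0.50. The activator Ciita thus fell by 2.71 while H2-Aa, H2-Ab1 and H2-Eb1 did not pass the test and Cd74 rose. The list of 14 genes also holds Ciita and Ctss. In it 4 were called higher and 6 lower, beside 27.1% higher and 27% lower of all genes tested.

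Toll-like receptors and their partners, through which LPS acts, gave 6 higher and 9 lower genes of 17 tested, out of 23 listed. Among all genes tested the shares were 27.1% higher and 27% lower. Tlr9, the sensor of microbial DNA, had 2.32 and 2.72 FPKM in ko pre-plasmablasts, against 65.7 and 68.6 FPKM in ko activated B cells (log2 change -4.28 ± 0.12, adjusted p = 2.17e-09). Tlr1 had 1.94 and 2.04 FPKM, against 26.5 and 28.7 FPKM. Ly86, which encodes MD-1, the partner of the receptor Cd180, fell by 2.30, whereas Cd180 itself rose by 0.40. The LPS receptor Tlr4 was low and not called, at 2.47 and 3.24 FPKM, against 2.69 and 3.32 FPKM, while its partner Ly96, or MD-2, rose by 0.81. Of the adaptors, Ticam1 rose by 1.08, and Ticam2 and Myd88 fell by 1.17 and 0.54. Cd14 did not reach the filter on low values.

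The secretory pathway changed as a whole. Of 28 ER folding genes, 26 were called higher and 1 lower, with 24 higher by at least 1 and a median of 2.66. Their summed level was 24413 and 23697 FPKM in ko pre-plasmablasts, against 3798 and 4088 FPKM in ko activated B cells. Hsp90b1, the partner of Mzb1, had 4476 and 3990 FPKM, against 419 and 456 FPKM (log2 change 3.27 ± 0.13, adjusted p = 1.46e-08). Hspa5, which encodes the ER Hsp70 BiP, had 2795 and 2427 FPKM, against 359 and 396 FPKM (2.78 ± 0.12). Both chaperones were high in both pre-plasmablast libraries. Fkbp11, a peptidyl-prolyl isomerase of secretory cells, had 179 and 194 FPKM, against 1.92 and 3.10 FPKM, and rose by 5.76. Txndc5 and Creld2 rose by 4.03 and 3.60, the BiP cochaperones Dnajb9 and Dnajc3 by 3.44 and 2.82, and Manf, a secreted ER stress protein, by 2.98. Calr, the lectin chaperone calreticulin, rose by 2.39, whereas its membrane-bound relative Canx rose by 0.93.

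Within the canopy family, the members moved in opposite directions. Cnpy3, a partner of Hsp90b1 in the folding of Toll-like receptors, had 8.45 and 9.36 FPKM in ko pre-plasmablasts, against 80.4 and 75.8 FPKM in ko activated B cells. It fell by 3.0 on the log2 scale (SE 0.13, adjusted p = 2.71e-08) and was the only ER folding gene called lower. Cnpy2 had 193 and 214 FPKM, against 51.5 and 51.1 FPKM, and rose by 1.97. Cnpy4 was not called, at 0.21. Hsp90b1 thus rose in ko pre-plasmablasts together with Cnpy2 and against Cnpy3.

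ER-associated degradation, which returns misfolded proteins to the cytosol, was called higher in all 19 genes tested, with a median of 1.92. Derl3, a derlin of secretory cells, had 554 and 469 FPKM in ko pre-plasmablasts, against 16.8 and 19.2 FPKM in ko activated B cells (log2 change 4.75 ± 0.11, adjusted p = 1.02e-09), whereas Derl1 and Derl2 rose by 1.67 and 0.98. The mannosidase-like factors Edem1, Edem2 and Edem3 rose by 2.65, 3.24 and 2.69. Sel1l and Syvn1, the core of the Hrd1 ubiquitin ligase, rose by 2.40 and 1.68. With libraries scaled to equal totals, 18 of the 19 remained called higher.

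Genes of the translocon, the signal recognition particle and signal peptidase were called higher in 22 of 23 cases, with a median of 1.90. Ssr4 and Ssr2, subunits of the translocon-associated protein complex, rose by 3.08 and 3.01, and the channel genes Sec61a1 and Sec61b by 2.45 and 1.95. Signal peptidase subunits Spcs1, Spcs2 and Spcs3 rose by 2.45, 1.93 and 2.15. Of the 2 catalytic signal peptidase genes, Sec11c had 1510 and 1452 FPKM in ko pre-plasmablasts, against 306 and 307 FPKM in ko activated B cells, and Sec11a had 151 and 145 FPKM, against 74.4 and 73.6 FPKM. Srp54a was not called, at 2.94 and 2.14 FPKM, against 1.59 and 1.29 FPKM.

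N-glycosylation enzymes were called higher in 28 of 34 cases and lower in none, with a median of 1.13. The subunits of the oligosaccharyltransferase led the list, with Ddost at 2.87, Rpn1 at 2.70, Rpn2 at 2.36 and Stt3a at 2.32. Ddost had 814 and 905 FPKM in ko pre-plasmablasts, against 108 and 126 FPKM in ko activated B cells. Tusc3, another subunit, was not called, at 13.7 and 16.2 FPKM, against 17.0 and 16 FPKM. The enzymes that build the lipid-linked sugar changed less evenly, with Alg2 at 2.08 and Alg9 at 0.36. Under equal totals the list gave 25 higher and 2 lower genes.

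Transport between ER and Golgi was called higher in 37 of 38 genes, with a median of 1.35. Lman1, the cargo receptor ERGIC-53, had 268 and 283 FPKM in ko pre-plasmablasts, against 24.2 and 30.1 FPKM in ko activated B cells (log2 change 3.30 ± 0.12). Its partner Mcfd2 rose by 1.88. The Sec24 cargo adaptors of the COPII coat differed, with Sec24d at 2.56, Sec24a at 2.33, Sec24c at 0.75 and Sec24b at -0.26, the last the only member called lower. Of the receptors that return ER proteins, Kdelr3 had 4.66 and 4.87 FPKM, against 0.122 and 0 FPKM, Kdelr2 rose by 2.08 and Kdelr1 by 1.68. COPI coat subunits such as Copa and Arcn1 rose by 0.86 and 0.87.

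**Figure D2:**
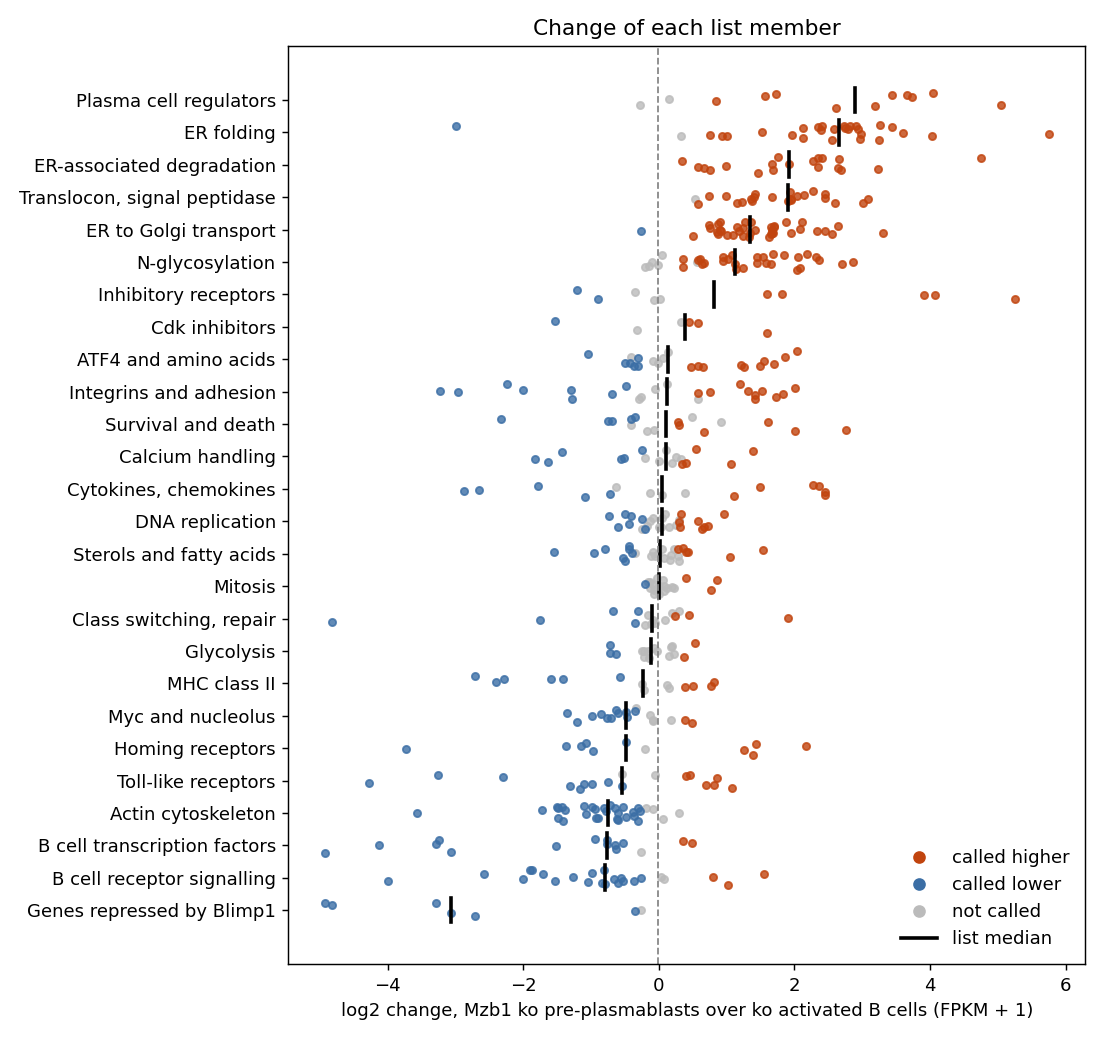
Log2 change of each tested member of 26 gene lists, with 1 point per gene, black bars at list medians and the dashed line at the median of all genes tested (-0.02). Plasma cell regulators and the 5 secretory lists sit highest, with medians of 1.13 to 2.90, and the genes repressed by Blimp1 lowest, at -3.07; under equal totals the small medians change sign for DNA replication, mitosis, ATF4 and amino acids, sterols, integrins, survival, cytokines and calcium.

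The elements printed above were counted in the promoters by the direction of change, as a description with no test. ERSE was found in 15 genes (0.169% of promoters), of which 11 were called higher, 1 lower and 3 not called. It was present in 1.06% of promoters of genes higher by at least 1 (9 of 848) and in 0 of 529 promoters of genes lower by at least 1. The 9 were Derl3, Creld2, Hsp90b1, Pdia6, Dnajc3, Hspa5, Ero1lb, Calr and Syvn1, each with a role in ER folding or degradation. Hsp90b1 held 2 copies. Canx and Alg12 also rose, by 0.93 and 0.95, and Alg12 shares the bidirectional promoter and the element of Creld2. Adcy3, an adenylyl cyclase, fell by 0.72 with the element present. UPRE was found in 94 genes (1.06% of promoters), of which 47 were called higher and 11 lower. It was present in 3.18% of promoters of genes higher by at least 1, in 0.567% of those lower by at least 1 and in 0.888% of those not called. ERSE and UPRE overlapped in no promoter. A match of letters describes the window and is neither a binding site nor a cause.

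**Figure D3:**
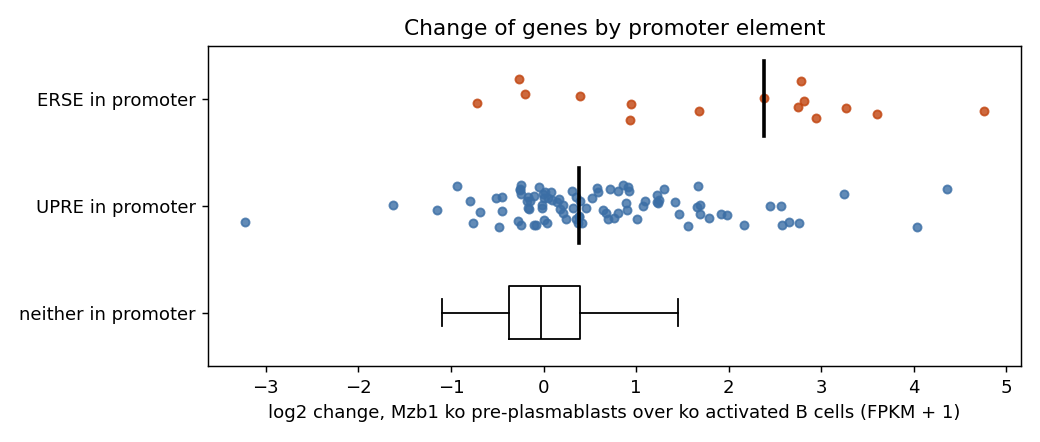
Log2 change over the ko step for genes with ERSE or UPRE in the promoter window (1 point per gene, black bars at medians) and for genes with neither (box from the first to the third quartile, line at the median, whiskers at the 5th and 95th percentiles). The median was 2.39 for the 15 genes with ERSE, 0.38 for the 94 genes with UPRE and -0.02 for the 8765 genes with neither.

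Not all branches of the stress response followed the folding genes. Of 21 genes of Atf4 and amino acid supply tested, 10 were called higher and 6 lower, beside 27.1% and 27% of all genes tested. Their median was 0.13 and turned to -0.02 under equal totals. Slc3a2, the heavy chain of amino acid transporters, had 396 and 483 FPKM in ko pre-plasmablasts, against 101 and 111 FPKM in ko activated B cells, and rose by 2.04. Cebpb, Chac1 and Ddit3, the last encoding the stress factor Chop, rose by 1.86, 1.69 and 1.26. Atf4 itself rose by 0.58. Asns, the asparagine synthetase and a classical Atf4 target, was not called, at 114 and 105 FPKM, against 112 and 110 FPKM. Psat1 of serine synthesis and Mthfd2 of mitochondrial one-carbon metabolism fell by 0.49 and 1.04.

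Cell cycle genes showed no common direction. Of 26 DNA replication genes, 8 were called higher and 7 lower, none by 1 or more, with a median of 0.04 that turned to -0.11 under equal totals. The shares over all genes tested were 27.1% higher and 27% lower. Fen1, a flap endonuclease, had 136 and 146 FPKM in ko pre-plasmablasts, against 70.6 and 73.0 FPKM in ko activated B cells, and rose by 0.96. Rrm1, the large subunit of ribonucleotide reductase, fell by 0.73, while its partner Rrm2 rose by 0.30. Within the MCM helicase, Mcm6 and Mcm2 rose by 0.63 and 0.32, and Mcm3 and Mcm7 fell by 0.41 and 0.24. Of 20 mitosis genes, Mki67, Cdc20 and Cdk1 were called higher, by 0.86, 0.77 and 0.40, and Cenpa lower, by 0.20. Of these, Mki67, Cdk1 and Cenpa lost their call under at least 1 other setting. Top2a had 163 and 130 FPKM, against 148 and 128 FPKM, with overlapping groups. Among Cdk inhibitors, Cdkn2b, Cdkn1b and Cdkn2c rose by 1.60, 0.58 and 0.44, and Cdkn2d fell by 1.54.

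Nucleolar and Myc-linked genes leaned lower, with 11 of 18 called lower, 2 higher and a median of -0.48. Dkc1, the pseudouridine synthase of box H/ACA particles, had 20.6 and 22.7 FPKM in ko pre-plasmablasts, against 58.9 and 54.5 FPKM in ko activated B cells (log2 change -1.35 ± 0.10). Npm1 fell by 1.21 and Polr1a, the large subunit of RNA polymerase I, by 0.98, while Odc1 and Nme1 rose by 0.49 and 0.38. Of 16 glycolysis genes, Pkm and Pfkp were called higher, though not under every other setting, and Gpi1, Ldha and Pgam1 lower. Eno1 and Gapdh, which have near-identical copies elsewhere in the genome, were listed at only 0.935 to 9.37 FPKM, so their levels are uncertain. Of 26 sterol and fatty acid genes, 6 were higher and 8 lower, beside 27.1% higher and 27% lower of all genes tested. Insig1, which holds back sterol synthesis, rose by 1.54, and Scd1 and Acly of fatty acid synthesis fell by 1.55 and 0.96.

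The actin cytoskeleton fell nearly throughout. Of 32 genes, 28 were called lower and none higher, 10 by at least 1, with a median of -0.75. Their summed level was 8102 and 8490 FPKM in ko pre-plasmablasts, against 15867 and 17319 FPKM in ko activated B cells. Evl, an Ena/VASP protein that extends filaments, had 6.12 and 5.84 FPKM, against 77.6 and 85.6 FPKM (log2 change -3.56 ± 0.15, adjusted p = 2.79e-08). The actin-bundling Lcp1 and the GTPase Rac2 fell by 1.50 and 1.49. Tmsb4x, which binds actin monomers, had 1408 and 1275 FPKM, against 4307 and 4503 FPKM, and fell by 1.72. Coro1a, a coronin of lymphocytes, fell by 1.42, whereas Coro2a was not called, at 1.11 and 0.720 FPKM, against 0.706 and 0.406 FPKM. Rhoa, Rhoh and Vasp were not called either, with log2 changes of -0.09, 0.07 and -0.19.

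Integrin genes moved in both directions. Of 23 integrin and adhesion genes tested, 10 were called higher and 8 lower, beside 27.1% and 27% of all genes tested. Mixed calls alone do not set this list apart. Itgb1, the β1 chain, had 29.2 and 33.2 FPKM in ko pre-plasmablasts, against 122 and 135 FPKM in ko activated B cells (log2 change -2.01 ± 0.11, adjusted p = 1.41e-07). Itgb7 fell by 2.24 and Itgam, the αM chain, by 2.96. Its partner Itgb2 rose by 1.20. Itga4, the α4 chain and partner of the β1 and β7 chains, rose by 1.42, and Itga6 by 1.74. Itgav, Itgb3 and Itgb5, which form the αV integrins, rose by 1.42, 1.84 and 2.01, all of them low, with at most 13.7 FPKM. The α4 partner thus rose while both of its β chains fell. Among the activators of integrins, Rasgrp2, which loads Rap1 with GTP, fell by 3.23, Apbb1ip by 1.29 and the kindlin Fermt3 by 0.68, whereas Tln1, talin, was not called, at 102 and 132 FPKM, against 91.3 and 124 FPKM. Selplg, the selectin ligand, rose by 1.52.

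Homing receptors also had calls both ways, with 4 of 11 tested higher and 6 lower, beside 27.1% and 27% of all genes tested. Ccr7, the receptor that draws lymphocytes to the T cell zone, had 5.26 and 8.30 FPKM in ko pre-plasmablasts, against 93.7 and 106 FPKM in ko activated B cells (log2 change -3.72 ± 0.19). Cxcr5, the receptor for follicles, fell by 0.49. Cxcr4, which draws plasma cells to bone marrow, had 262 and 216 FPKM, against 106 and 93.0 FPKM, and rose by 1.25. Ccr10 and S1pr2 rose by 2.17 and 1.44 from low levels, and S1pr1 was not called.

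Survival genes moved in both directions within 1 family. Bcl2l1, the gene of Bcl-xL, had 105 and 111 FPKM in ko pre-plasmablasts, against 16.2 and 14 FPKM in ko activated B cells (log2 change 2.76 ± 0.08, adjusted p = 2.83e-09). Bcl2, its anti-death relative, had 5.46 and 4.25 FPKM, against 29.3 and 27.3 FPKM (-2.33 ± 0.12). The death-promoting Bcl2l11, or Bim, and Bmf rose by 2.00 and 1.61, while Bax and Bid fell by 0.42 and 0.68. Mcl1 rose by 0.30. Of the receptors for Baff and April, Tnfrsf13b, or Taci, rose by 0.66, Tnfrsf13c was not called, and Tnfrsf17, the plasma cell receptor Bcma, was at 0.709 and 1.07 FPKM, against 0 in both ko activated B cell libraries, and was not called.

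Among inhibitory receptors and ligands, 5 of 10 tested were called higher and 2 lower, beside 27.1% and 27% of all genes tested. Lag3 had 251 and 186 FPKM in ko pre-plasmablasts, against 5.39 and 4.02 FPKM in ko activated B cells (log2 change 5.26 ± 0.19, adjusted p = 1.09e-08). Ctla4 had 131 and 107 FPKM, against 7.54 and 6.39 FPKM, and Tigit 29.3 and 36.1 FPKM, against 1.55 and 0.539 FPKM. These receptors are best known from T cells. The summed level of the 9 T cell markers was also higher, at 8.72 and 6.64 FPKM in ko pre-plasmablasts, against 1.99 and 1.69 FPKM in ko activated B cells, with both tested markers, Cd3g and Lat, called higher (1.41 and 1.47) and Cd3e at 0 in all 4 libraries. The part of T cells in these changes was not tested. Pdcd1 rose by 1.59, Cd274, or PD-L1, was not called and Btla fell by 0.90. Of the cytokines, Il10 had 100 and 74.8 FPKM, against 14.5 and 15.6 FPKM, and rose by 2.45. Il6 fell by 2.66 and Tgfb1 by 1.10, and Ccl3 and Ccl4 rose by 2.27 and 2.36.

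Calcium stores and class switching gave mixed lists, with 5 higher and 6 lower of 17 and 3 higher and 5 lower of 16. Over all genes tested 27.1% were called higher and 27% lower, so mixed calls alone do not set these lists apart. The ER calcium pump Atp2a2 rose by 1.07, whereas Atp2a3 fell by 1.43, and the release channel Itpr3 rose by 1.39, whereas Itpr1 fell by 1.82. The plasma membrane channel gene Orai2 fell by 1.63, and Orai1 was not called. In the repair list, Lig4, the ligase of end joining, rose by 1.91. Apex1 of base excision repair fell by 1.75.

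Several of the genes with the largest changes belonged to none of the lists. Hid1, linked to secretory granules, had 86.7 and 85.1 FPKM in ko pre-plasmablasts, against 0.563 and 0.893 FPKM in ko activated B cells, and rose by 5.66. Prg2, the eosinophil major basic protein, had 62.5 and 58.9 FPKM, against 0.116 and 0.370 FPKM, and rose by 5.64. Apoe, apolipoprotein E, had 1466 and 2090 FPKM, against 44.0 and 84.7 FPKM. The rule that named these 3 genes took only genes without overlap between the groups, so their separation is no result of its own. Slpi, a secreted protease inhibitor, varied more between libraries of a group, with 223 and 871 FPKM, against 1.31 and 3.83 FPKM (log2 change 7.05 ± 0.99). Its replicate 2 was the higher in both groups, and the change was 6.60 within replicate 1 and 7.49 within replicate 2. Tmed6 had 106 and 28.1 FPKM, against 0 and 1.42 FPKM, with changes of 6.74 and 3.59 within the replicate numbers. Lax1, an adaptor that restrains lymphocyte signalling, and 5031425E22Rik rose by 4.75 and 4.81. Among the deepest falls, Mpeg1, a pore-forming protein of phagocytes, had 5.40 and 4.60 FPKM, against 138 and 119 FPKM. The tryptophan pathway enzyme Haao fell by 4.26, S100a4 by 4.03, Ceacam1 by 3.87, the decoy chemokine receptor Ackr2 by 3.86 and Il10ra, a chain of the Il10 receptor, by 3.80. Il10 thus rose over the same step in which a chain of its receptor fell.

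The same step in wt cells shares no library with the ko step, so the difference between genotypes can be tested, but the 2 steps differ in the sex of the mice, since 1 of the 2 wt libraries of each population had the Xist level of female cells and no ko library did. The wt step called 53.4% of genes, 27.1% as higher and 26.3% as lower. The difference of the steps was called in 4 genes (0.0361% of those tested), 2 each way (0.0181% higher and 0.0181% lower). An unadjusted limma p under 0.05 was found for 395 of the 11069 genes. That is less than the share of 0.05 expected where no gene differs, so the count alone marks no set of differences. It does not show that none of the 395 differs, and Mzb1 is among them. For 9995 genes, or 90.3% of those tested, the 95% interval of the difference lay within a log2 change of -1 to 1, and its median half-width was 0.401. These intervals are on the log2(FPKM + 1) scale, which understates fold differences of genes near or below 1 FPKM, and each holds for its gene alone and not for all of them jointly. Smaller differences were often not detectable with 2 libraries a group. Of genes called in the ko step alone (849) none, and of those called in the wt step alone (763) 2, had a called difference. With the 9 libraries under 1 FPKM of Xist alone, which leaves 1 wt library of each population, 5 genes were called. Snora28 was among them, whereas Mzb1, Atp9a and Cdkn2a no longer passed, with differences of -1.63, 2.08 and -1.52 (adjusted p = 0.221, 0.554 and 1.0 by limma).

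**Figure D4:**
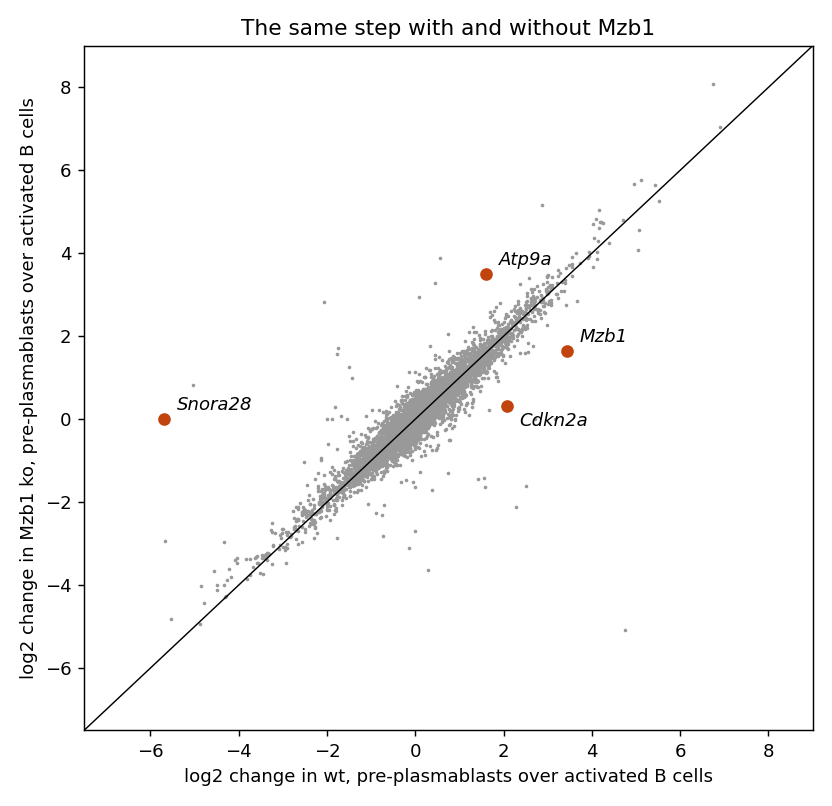
Log2 change of each tested gene over the step in Mzb1 ko cells (vertical) against the same in wt cells (horizontal), with the line of equal change. Most points lie along the line, and the 4 genes with a called difference, Snora28, Atp9a, Mzb1 and Cdkn2a, are marked.

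Atp9a, a P4-type ATPase of endosomes and the Golgi, rose more in ko cells. It had 14 and 15.3 FPKM in ko pre-plasmablasts, against 0.137 and 0.673 FPKM in ko activated B cells, while in wt cells it had 2.74 and 2.23 FPKM in pre-plasmablasts, against 0.0788 and 0.202 FPKM in activated B cells. The difference of the steps was 1.89 ± 0.25 (95% interval 1.35 to 2.44, adjusted p = 0.0465). Ko plasmablasts had 23.2 and 25.2 FPKM and wt plasmablasts 3.43 and 3.33 FPKM, libraries that do not enter the difference. In activated B cells the 2 genotypes overlapped. Atp9a is named because its difference was called, so the separation of the genotypes in pre-plasmablasts adds no evidence.

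Cdkn2a, which encodes the Cdk inhibitor p16 and the p53 activator p19Arf, did not pass the test in ko cells and rose in wt cells. It had 52.4 and 70.6 FPKM in ko pre-plasmablasts, against 49.3 and 47.5 FPKM in ko activated B cells (log2 change 0.32 ± 0.17, adjusted p = 0.123). In wt cells it had 120 and 93.3 FPKM in pre-plasmablasts, against 23.7 and 25.3 FPKM in activated B cells, a log2 change of 2.07. The difference was -1.75 ± 0.23 (95% interval -2.26 to -1.23, adjusted p = 0.0466). In these libraries the ko values thus lay above the wt values in activated B cells and below them in pre-plasmablasts. Cdkn2a too is named because its difference was called, so this order adds no evidence. Gene-level values do not separate the 2 products of the locus.

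The adjusted p-values of Atp9a and Cdkn2a lay just under 0.05, and both calls were lost under several other settings, among them the libraries of the compared groups alone (adjusted p = 0.248 for Atp9a and 0.10 for Cdkn2a). The Mzb1 difference had an adjusted p of 0.153 with no filter on low values. Snora28, a small nucleolar RNA too short to be sampled well by this library type, was listed at 0 in all ko libraries and in wt pre-plasmablasts, and at 76.2 and 33.5 FPKM in wt activated B cells.

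Several members of the programmes above rose or fell by different amounts without passing the test of the difference. Itgam had 14.3 and 12.1 FPKM in ko pre-plasmablasts, against 98.0 and 122 FPKM in ko activated B cells, and 3.44 and 2.46 FPKM in wt pre-plasmablasts, against 78.7 and 77.4 FPKM in wt activated B cells. Its difference was 1.37 (95% interval 0.85 to 1.89, adjusted p = 0.241). For Jchain the difference was 1.34 (0.23 to 2.45) and for Bhlha15 0.89 (0.49 to 1.30). These 3 were chosen after their values had been seen. For the plasma cell regulators Prdm1, Xbp1 and Irf4 the differences were 0.11, 0.11 and 0.02, with intervals of -0.30 to 0.53, -0.19 to 0.41 and -0.36 to 0.40. For Pax5 and Itgb1 they were 0.06 (-0.33 to 0.45) and 0.08 (-0.27 to 0.42). The ER folding list had a median change of 2.66 in ko cells and 2.45 in wt cells, with none of its members called in the difference.

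**Figure D5:**
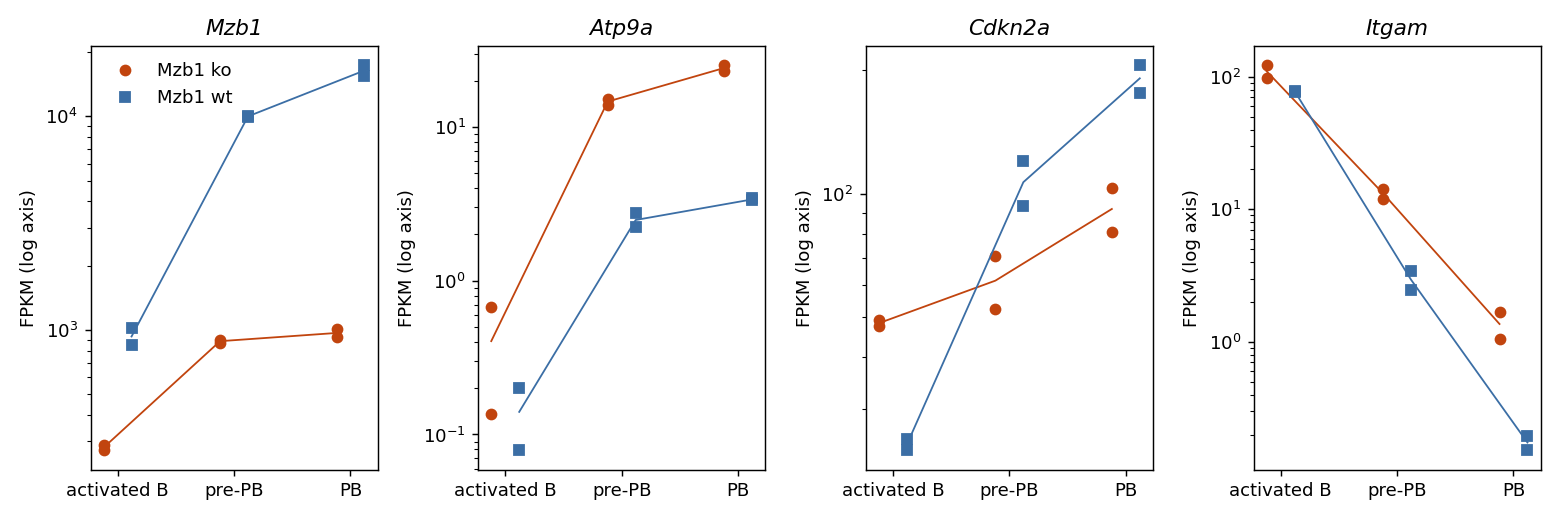
FPKM of Mzb1, Atp9a, Cdkn2a and Itgam on log axes in activated B cells, pre-plasmablasts (pre-PB) and plasmablasts (PB), with ko (circles) left of wt (squares), 1 point per library and lines through the means. Atp9a is higher in ko from pre-plasmablasts on, Cdkn2a lies lower in ko than in wt pre-plasmablasts and plasmablasts, and Itgam, whose difference was not called, stays higher in ko pre-plasmablasts and plasmablasts.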

How the data were processed

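RNA was measured in 12 libraries, 6 groups of 2. Per the labels' protocols, polyadenylated RNA was selected and libraries were prepared with a stranded mRNA kit. The deposited FPKM values came, per the submitters' processing notes, from TopHat2 2.0.14 alignments to mouse build mm9 with Cufflinks and Cuffnorm (both 2.2.1) and Cuffdiff, after bcl2fastq in versions 2.17.1.14 and 0.3.1. The annotation, scaling and filters are not given in the sources used here. The files hold no counts or coordinates, so depth cannot be known, no counting interval is given, and reads of near-identical copies cannot be traced. The 24325 symbols include 0 immunoglobulin constant-region genes.

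From these values log2(FPKM + 1) was computed, and the 11069 genes that reached 1 FPKM in 2 or more libraries entered limma 3.58.1 (limma-trend) in R 4.3.3. The fit had 1 coefficient per group over all 12 libraries (6 residual degrees of freedom, prior 4.49). Tests were two-sided, adjusted by Benjamini-Hochberg within each comparison. The step difference is the ko step minus the wt step. The model was also run on simulated data with independent noise for each gene and library. Those data held no difference of sex, fragment pattern or shared replicate, so they do not check the model against these. Promoter sequences came from RefSeq (build GRCm38.p6), matched by symbol to 8874 of the tested genes (80.2%), and were not combined with coordinates of mm9. Python 3.11.15 and matplotlib 3.10.9 were used for tables and figures.

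The members and the 35 gene lists (568 symbols, 510 tested) were chosen with earlier results of these data known, and lists are described by counts and medians with no test. Named by rule were 10 genes fixed by name, the 12 largest called changes each way without overlap between libraries, up to 4 called members of each list with the lowest p, and the genes called in the step difference (at least 3 each way by p). Of the genes so named, Pira7 and Rn45s were not called. Other list members are named to complete a complex or family and were chosen after their values were seen. Some genes that the rule names are not reported here. Alternatives were other filters, pseudocounts and scalings, leaving out small RNA genes, the compared groups alone, a replicate block or correlation, the fragment pattern of low values (a term, or the 8 libraries of 1 pattern alone), a minimum change, leaving out each library and, chosen after seeing the data, the libraries under 1 FPKM of Xist alone.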

Additional observations from a re-analysis of the deposited data

Results flagged for a closer look

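The ko step and the wt step differed by the test of the difference itself (limma, Benjamini-Hochberg adjusted over 11069 genes) in 4 genes. Mzb1, the deleted gene, differed by -1.78, with 899 and 871 FPKM in ko pre-plasmablasts, against 273 and 289 FPKM in ko activated B cells, and 10066 and 9926 FPKM in wt pre-plasmablasts, against 845 and 1016 FPKM in wt activated B cells. Atp9a differed by 1.89, with a log2 change of 3.50 in the ko step and 1.61 in the wt step. Cdkn2a differed by -1.75, with a log2 change of 0.32 in the ko step and 2.07 in the wt step. Snora28 differed by 5.69 and was listed at 0 in the 4 ko libraries and in both wt pre-plasmablast libraries, against 76.2 and 33.5 FPKM in wt activated B cells, so no fold is given for it.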

How the results depend on the processing

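Over all other settings at an adjusted p under 0.05, the ko step called between 4198 genes (the libraries of fragment pattern A alone, which sets 1 ko pre-plasmablast library against 1 ko activated B cell library with the spread taken from the wt groups, and so is no check of the ko replicates) and 6450 genes, against 5996. A minimum log2 change of 1 left 1778 genes in the ko step (1088 higher, 690 lower) and 1801 in the wt step. Leaving out each library in turn gave 4902 to 5155 genes for the ko step (2456 to 2676 higher, 2338 to 2517 lower) and 4866 to 5037 for the wt step. Of 140 named genes, 135 were called in the ko step. Of these, 127 kept their call under every setting run other than the minimum change, and Mki67, Cdk1, Cenpa, Pkm, Pfkp, Nkg7, Prf1 and Flt3 lost it under at least 1. No named gene reversed. Without pre-plasmablast replicate 2, the library with the largest small RNA share, 26 ER folding genes were called higher and 25 actin genes lower.

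The step difference was less stable. It called 2 genes with a pseudocount of 0.1, 1 with the libraries of fragment pattern A alone, where each ko group again has 1 library, and 1 with the compared groups alone, and the cause was not tested. Leaving out a library gave 1 to 4 genes: 1 without ko activated B cell replicate 1, wt pre-plasmablast replicate 1 or wt pre-plasmablast replicate 2, and 2 without wt activated B cell replicate 1. Atp9a remained called in only 1 of the 8 leave-outs (without ko activated B cell replicate 2), and so did Cdkn2a (without ko pre-plasmablast replicate 2). Mzb1 had an adjusted p of 0.153 with no filter.

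The labels do not tie equal replicate numbers to a mouse or culture. By Xist and Ddx3y, wt libraries of equal number shared a sex in all 3 populations, which does not show that they came from the same mouse. The 9 libraries under 1 FPKM of Xist alone, a setting chosen after seeing the data, gave 5781 calls in the ko step, 4265 in the wt step and 5 in the step difference, with the lone wt libraries assumed to vary like the ko groups. Across genes, the replicate differences of pre-plasmablasts and activated B cells correlated at 0.29 in ko and 0.046 in wt. A replicate block gave 6425 calls in the ko step, 6362 in the wt step and 4 in the step difference. With 2 libraries a group and no counts, neither depth nor small changes near the scaling shift can be resolved.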
